A study of Mus musculus with 6 samples.

Results

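*Rhox5* encodes a homeobox transcription factor of the reproductive homeobox family, whose genes lie side by side on the mouse X chromosome. The signal listed under the name *Rhox5* was 1 of 26216 gene names quantified by RNA sequencing in LT/ST-HSCs, the long-term and short-term blood stem cells of the bone marrow. It was chosen by its measured values in these samples, as the gene whose mean log2 signal in knockout cells lay furthest above that in control cells. Its difference between the genotypes is therefore given as a description without a test.

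Both groups of cells came from the same kind of mixed chimera. *Ltbr*-/- LSKs, which carry CD45.2, and Ly5.1 LSKs, which carry CD45.1 and an intact *Ltbr* gene, were transplanted together into Ly5.1/Ly5.2 mice after lethal irradiation, and the stem cells of each donor type were sorted after 6 weeks. LSKs are the lineage-negative, Sca-1 and c-kit positive fraction of the bone marrow, and *Ltbr* encodes the lymphotoxin beta receptor, a member of the TNF receptor family. The sorted cells were Annexin-V negative LSKs with CD150 and without CD48, and material from 6 chimeras was combined into 3 samples per genotype, here called *Ltbr* KO and Ly5.1 WT. The labels give donor ages of 13, 10, and 10 to 13 weeks for *Ltbr* KO samples 1 to 3, and of 7 to 13 weeks for each Ly5.1 WT sample. The *Ltbr* deletion, the CD45 allele and the donor strain changed together between the groups and cannot be told apart, and donor age was not fully matched. With 3 pooled samples per group, the spread given below is that between pools and not between single mice.

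*Rhox5*, first described as Pem, is best known from the male reproductive tract, where Sertoli cells and epididymis transcribe it, and from placenta and embryonic tissue outside the embryo proper. It is transcribed from a proximal promoter and from a distal promoter, for which ETS and SP factors have been described as regulators. In most adult somatic tissue the gene is silent and its promoters carry DNA methylation, to which the H3K9 methylation machinery adds. Genes held down in this way include many germline genes, which are useful companions when the gene is found in blood cells.

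In RefSeq (GRCm38.p6), *Rhox5* spans chrX:37754608-37808878 on the plus strand. GENCODE release M21 starts the gene 50.2 kb further downstream, at chrX:37804842-37808876, with 4 exons and 754 bases in the longer of its transcripts. The files give 1 value per gene name and sample, so the start site used in these cells was not measured. The promoter window at the RefSeq start, 250 bases before to 50 after it, is shown because it holds recognition letters of both factor classes named for the distal promoter. The window of *Rhox2h*, the nearest upstream family member in the files, is shown beside it as a window that holds the ETS letters only and belongs to a gene with no signal above the lowest level in any sample. Capitals mark CCGGAA, an ETS core, and GGCGGG, the core of an SP site, each on either strand.
Rhox5, chrX:37754358-37754657, plus strand: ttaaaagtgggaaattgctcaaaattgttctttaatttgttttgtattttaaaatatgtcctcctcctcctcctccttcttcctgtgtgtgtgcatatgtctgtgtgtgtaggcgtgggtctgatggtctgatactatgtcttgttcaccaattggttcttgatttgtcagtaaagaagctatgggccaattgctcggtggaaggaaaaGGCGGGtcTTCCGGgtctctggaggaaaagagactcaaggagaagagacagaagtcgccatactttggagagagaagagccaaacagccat
Rhox2h, chrX:37673228-37673527, minus strand: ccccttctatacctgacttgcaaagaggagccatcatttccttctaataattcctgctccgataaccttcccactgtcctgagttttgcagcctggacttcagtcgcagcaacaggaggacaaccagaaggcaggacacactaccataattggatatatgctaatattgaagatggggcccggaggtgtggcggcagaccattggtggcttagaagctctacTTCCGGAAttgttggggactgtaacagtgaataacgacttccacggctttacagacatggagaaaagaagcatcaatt

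In the *Rhox5* window GGCGGG began 41 bases and the reverse complement of CCGGAA 33 bases before the start. Both motifs were looked for on both strands in 32851 windows of this length in RefSeq. CCGGAA occurred in 14.9% of them, GGCGGG in 35.3% and both in 8.69%. Of 27 windows that belong to other Rhox symbols, 7 held CCGGAA, all of them *Rhox2* copies, 2 held GGCGGG, those of *Rhox12* and *Rhox11-ps2*, and 0 held both. In the *Rhox2h* window the ETS letters form a palindrome, so that 1 site was read on both strands. The core bound by factors of the GATA family (searched as AGATAA) was not present in the *Rhox5* window and occurred in 11.2% of all windows. The *Rhox5* window held 5 CG dinucleotides, the pairs at which DNA is methylated, against a median of 7 over all windows, and 38.0% of windows had fewer. The windows of the other Rhox symbols held between 0 and 12, with a median of 7. A match of letters is a description of the sequence, and binding was not measured.

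The deposited signal is on a linear scale, taken here as 2 to the power of a regularized log, a log2 value that is scaled between samples and shrunk for weakly expressed genes. The files hold no read counts. The paper reports an average number of reads per sample, but the depth of each single sample is unknown, and no counting interval is given. *Ltbr*, the deleted gene, was read first. It stood at 24.2, 26.4 and 23.1 in the 3 *Ltbr* KO samples and at 564, 549 and 522 in the 3 Ly5.1 WT samples. The log2 difference was -4.47 (SE 0.08, adjusted p = 2.15e-32, limma), and every sample matched its label.

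*Rhox5* was strongly expressed in both groups. Its signal was 2166, 2391 and 2461 in Ly5.1 WT samples 1 to 3 and 5737, 5837 and 6779 in *Ltbr* KO samples 1 to 3. The groups did not overlap, and the lowest *Ltbr* KO value was 2.33 times the highest Ly5.1 WT value. *Ltbr* KO sample 3 was the highest of all, while the other two knockout samples lay close together. The means were 2339 ± 154 (SD, n = 3) in Ly5.1 WT and 6118 ± 574 (SD, n = 3) in *Ltbr* KO, a log2 difference of 1.38 (SE 0.08) or 2.61-fold. Within a group the highest sample exceeded the lowest by 1.18 times in *Ltbr* KO and 1.14 times in Ly5.1 WT. The residual SD of the log2 signal was 0.116, against a median of 0.082 for the 1001 tested genes whose mean lay within 2-fold of that of *Rhox5*. In bulk samples of this kind, a higher signal per cell and a larger share of cells with the transcript cannot be told apart.

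*Rhox5* was the gene with the highest log2 difference of 13108 tested genes, those with a mean in the upper 50% of all names. A gene was called where limma gave an adjusted p under 0.05 together with a change of 1.5-fold or more. Across the tested genes 356 (2.72%) were called higher and 8 (0.0610%) lower in *Ltbr* KO, 2.78% in all. In 2224 (17.0%) all *Ltbr* KO values lay above all Ly5.1 WT values, in 1767 (13.5%) below them, 30.4% in all. An unadjusted p under 0.05, given below for lists without calls, was reached by 3555 tested genes (27.1%). The 4 genes that followed were *Mt2* (1.32), *Cma1* (1.32), *Cyp11a1* (1.32) and *Mt1* (1.29), each given as a log2 difference and, like *Rhox5*, without a test. *Mt1* and *Mt2* encode metallothioneins, which bind zinc and other metals, *Cma1* a chymase of mast cells, and *Cyp11a1* the mitochondrial enzyme that begins steroid synthesis from cholesterol.

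The signal of *Mt2*, the closest of them, was 2989, 2758 and 3234 in Ly5.1 WT and 7255, 7422 and 7745 in *Ltbr* KO. *Cma1* ran from 2032 to 2452 in Ly5.1 WT and from 5262 to 5795 in *Ltbr* KO. *Cyp11a1* ran from 2802 to 3358 and from 7324 to 8090, and *Mt1* from 3445 to 3922 and from 8565 to 9518, in the same order. None of the 4 overlapped between the groups. The log2 difference of *Rhox5* exceeded that of *Mt2* by less than its own SE, so the order among these 5 genes is within the error of the values.

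**Figure D1:**
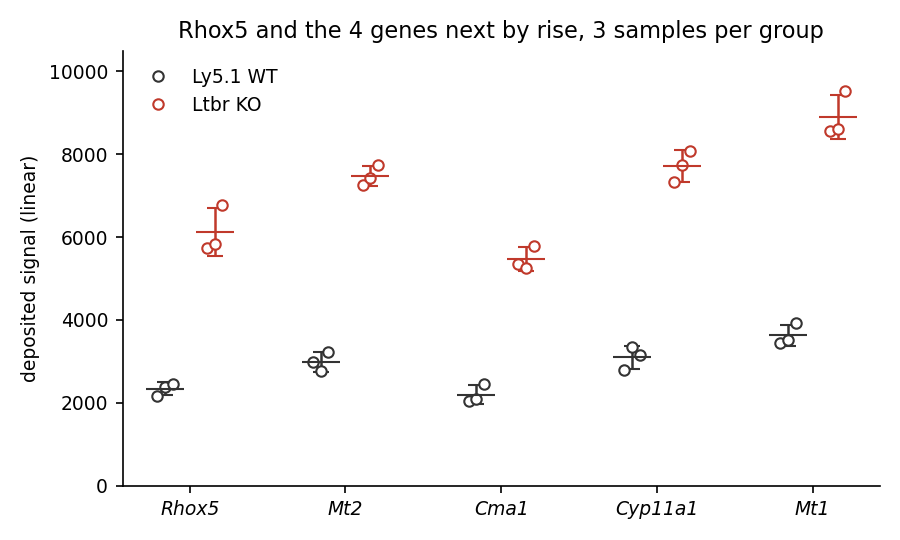
Deposited signal (linear, y axis) of *Rhox5* and of the 4 genes next to it by log2 difference, with 1 point per sample for Ly5.1 WT (black) and *Ltbr* KO (red); the horizontal bar is the mean and the whiskers are 1 SD over 3 samples. *Rhox5* lies between 2166 and 2461 in Ly5.1 WT and between 5737 and 6779 in *Ltbr* KO, and the other 4 genes show the same separation of the groups.

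Already in Ly5.1 WT the gene was among the more abundant of these cells. By mean signal over the 6 samples *Rhox5* stood at rank 445 of 26216 names. Levels of different genes were compared per length, as signal per kb of transcript, for the 12687 tested genes with a known transcript length. On that scale *Rhox5* stood at 3103 in Ly5.1 WT and 8114 in *Ltbr* KO, against a median of 121.3 over those genes and all samples, and above 98.3% and 99.1% of them. Its rank by level per kb was 212 in Ly5.1 WT and 118 in *Ltbr* KO.

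The transcript of *Rhox5* is short and abundant, and genes of that kind were more often higher in *Ltbr* KO. Of the 1001 tested genes with a mean within 2-fold, 119 (11.9%) were called higher, with a median log2 difference of 0.003. Among those with a known transcript length, the 80 of up to 1000 bases had a median log2 difference of 0.772, and 54 were called higher. For 198 genes of over 1000 and up to 2000 bases the median was 0.288 with 39 called, for 358 genes of over 2000 and up to 4000 bases it was 0.007 with 16 called, and for 351 longer genes it was -0.123 with 3 called. The log2 difference thus fell from class to class as transcripts became longer.

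A closer set is formed by the 84 tested genes with both a mean within 2-fold and a transcript length within 1.5-fold of those of *Rhox5*. Their log2 differences ran from -0.57 to 1.32 (*Mt2*) with a median of 0.618, and 46 (54.8%) were called higher. Of these genes 22 encode ribosomal proteins. The 52 that are left without ribosomal protein genes and predicted genes with Gm or LOC symbols had a median of 0.539, with 19 called higher. The log2 difference of *Rhox5* exceeded the median of the 84 genes by 0.767, a comparison that was chosen after the values had been seen. How far transcript length or its technical correlates enter the difference of *Rhox5* was not tested.

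**Figure D2:**
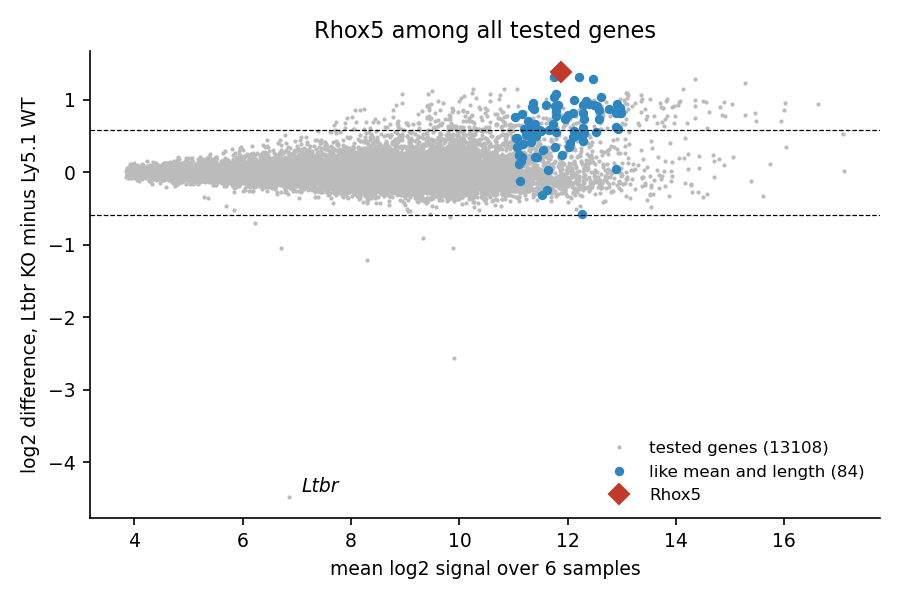
Log2 difference (*Ltbr* KO minus Ly5.1 WT, y axis) against mean log2 signal over 6 samples (x axis) for 13108 tested genes (grey), the 84 genes with mean and transcript length like those of *Rhox5* (blue) and *Rhox5* (red); dashed lines mark a 1.5-fold change in either direction. *Rhox5* at 1.38 is the uppermost point, the blue genes centre on 0.618, and *Ltbr* at -4.47 is the lowest.

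*Rhox5* was alone among its family. The files list 31 symbols that begin with Rhox, and the other 30 stood at exactly 1 in all 6 samples, so that no difference could be tested. A signal of 1 is a regularized log of 0, the value that the method gives to a gene without reads, and 9034 names (34.5%) stood there in every sample. Of 15 housekeeping names and 85 ribosomal protein names, 0 did. From the start of *Rhox1* to the end of *Rhox13* (chrX:37213804-38129966) the files hold 33 names, and *Rhox5* was the only 1 of them above 1. Its nearest family members on either side in the files, *Rhox2h* and *Rhox6*, the latter of the same subcluster as *Rhox5*, were both at 1.

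Reads of near-identical copies can be lost or misplaced in counting, which bears on how these lowest values are read. Each Rhox transcript was cut into all windows of 76 bases and compared with the transcripts of all other genes. *Rhox5* had 679 such windows in its GENCODE transcripts and shared 0 of them exactly with another annotated transcript. Sequence outside that annotation, reads with mismatches and the authors' own assignment of reads were not checked. *Rhox1*, *Rhox8*, *Rhox9*, *Rhox10*, *Rhox11*, *Rhox12* and *Rhox13* shared under 10% of theirs and were also at 1. Another 15 symbols, copies of *Rhox2*, *Rhox3* and *Rhox4*, shared over 50% of their windows, and their level is uncertain. The remaining symbols lay in between, among them *Rhox2h* at 27.8% and *Rhox6* at 11.4%. Their values of 1 are also less certain.

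**Figure D3:**
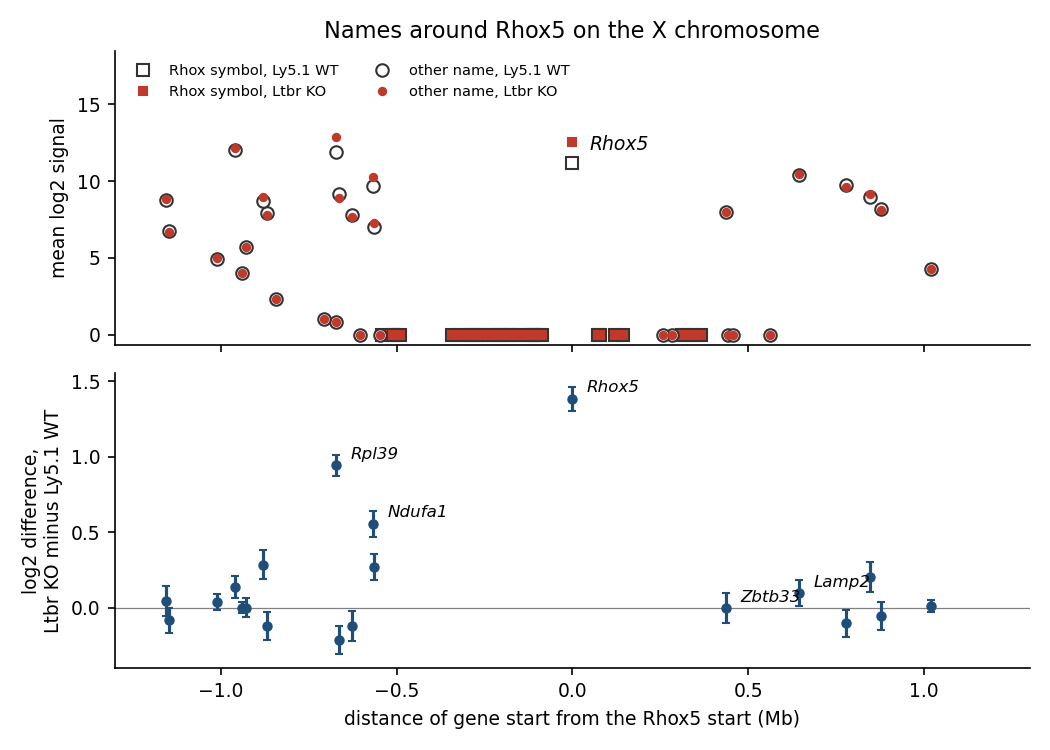
Names around *Rhox5* on the X chromosome by the distance of their start from that of *Rhox5* in Mb (x axis, both panels); the upper panel shows mean log2 signal in Ly5.1 WT (open) and *Ltbr* KO (filled) for Rhox symbols (squares) and other names (circles), the lower panel the log2 difference of tested genes with its SE. *Rhox5* stands alone in a stretch where all other Rhox symbols lie at 0 on the log2 scale, and *Rpl39* at 0.94 has the highest difference among the neighbours.

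The 10 nearest tested genes on each side of *Rhox5*, 20 in all, were read as the chromosomal surroundings. Their starts lay between -0.959 and 4.395 Mb from that of *Rhox5*, with *Gria3*, *Thoc2*, *Xiap* and *Stag2* at 3.646 Mb or more. Of the 20 genes 1 (5.0%) was called higher, *Rpl39*, and 0 were called lower, where 2.72% of all tested genes were called higher. The median log2 difference of the neighbours was -0.002, against -0.011 over all tested genes. *Rpl39* encodes a protein of the large ribosomal subunit. Its signal was 3674, 3991 and 4039 in Ly5.1 WT and 7225, 7621 and 7628 in *Ltbr* KO, with a log2 difference of 0.94 (SE 0.07, adjusted p = 3.28e-13, limma).

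The gene next to the cluster upstream, *Rnf113a1*, which encodes a RING finger protein, had a log2 difference of 0.27 (adjusted p = 0.0318, limma), and *Ndufa1*, a subunit of respiratory complex I, one of 0.56 (adjusted p = 5.42e-06, limma). Both were higher in every *Ltbr* KO sample but stayed under the 1.5-fold limit. The ends of these 2 genes overlap in RefSeq over a short stretch, chrX:37191222-37191238. The paper names a stranded library kit, and whether reads of this stretch were shared was not checked. The adjusted p of *Rnf113a1* was 0.119 without *Ltbr* KO sample 3 and 0.175 without Ly5.1 WT sample 1 (limma). Downstream, *Zbtb33*, which encodes the methyl-CpG binding protein Kaiso, stood at 251.4 ± 32.2 (SD, n = 3) in Ly5.1 WT and 249.8 ± 14.2 (SD, n = 3) in *Ltbr* KO. *Lamp2*, a lysosomal membrane protein, had a log2 difference of 0.10 (adjusted p = 0.515, limma).

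Over the whole X chromosome 422 other genes were tested. 11 of them (2.61%) were called higher and 0 lower, close to the 2.72% of all tested genes, and their median log2 difference was -0.021. The highest were *Pgk1* (1.11), an enzyme of glycolysis, *Cacna1f* (1.09), a calcium channel subunit, *Rpl39* (0.94) and *Pet2* (0.93), all in log2 units. 4 of the 11 encode ribosomal proteins, *Rpl39*, *Rpl36a*, *Rps4x* and *Rpl10*. *Xist*, the RNA that silences an X chromosome in female cells, stood between 17.41 and 19.07 in all samples. *Ddx3y*, a gene of the Y chromosome, stood between 580 and 651. Neither passed the test between the groups (adjusted p of 0.387 and 0.568, limma). *Eif2s3y*, another Y-linked gene, ran from 796 to 984 in Ly5.1 WT and from 681 to 722 in *Ltbr* KO, with a log2 difference of -0.34 (adjusted p = 0.00931, limma) below the fold limit, and *Kdm5d* had one of -0.27 (adjusted p = 0.0556, limma). Transcripts of the Y chromosome were thus present in both groups, at levels that were not equal for every gene.

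DNA methylation genes were read because methylation keeps *Rhox5* silent elsewhere. None of the 21 tested genes of the list was called at the 1.5-fold limit, 6 had an unadjusted p under 0.05, near the 27.1% of all tested genes, and the median log2 difference was -0.089. *Dnmt1*, the enzyme that copies methylation to the new strand, stood at 10970, 10460 and 10320 in Ly5.1 WT and at 9167, 9265 and 8563 in *Ltbr* KO, with no overlap. Its log2 difference was -0.23 (SE 0.06, adjusted p = 0.00979, limma), below the fold limit. It was -0.52 (adjusted p = 1.27e-07) with quantile normalization, and the adjusted p was 0.094 without *Ltbr* KO sample 3 and 0.0633 without Ly5.1 WT sample 1. The partner that guides *Dnmt1*, *Uhrf1*, had a log2 difference of -0.19 (adjusted p = 0.115), and the chromatin remodeller *Hells* one of 0.04 (adjusted p = 0.822, both limma).

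The enzymes that set new methylation did not pass the test either. *Dnmt3a* had a log2 difference of -0.19 (adjusted p = 0.156, limma) and *Dnmt3b* one of -0.10 (adjusted p = 0.553, limma). Their cofactor *Dnmt3l*, at a level of 62.3 to 86.9, had one of 0.27 (adjusted p = 0.0145, limma), again below the fold limit. *Tet2*, which oxidises methylated cytosine, ran from 383 to 548 in Ly5.1 WT and from 368 to 459 in *Ltbr* KO, and the groups overlapped. Methylation at *Rhox5* itself was not measured.

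The repressors that act on H3K9 and on germline genes gave 0 calls among 21 tested genes, with 4 at an unadjusted p under 0.05 (27.1% of all tested genes) and a median log2 difference of -0.056. The H3K9 methyltransferase *Ehmt2* had a log2 difference of 0.06 (adjusted p = 0.648, limma) and *Setdb1* one of -0.01 (adjusted p = 0.951, limma). *Cbx1*, a reader of H3K9 methylation, had one of -0.30 (adjusted p = 0.0171, limma) and the chromatin remodeller *Atrx* one of -0.29 (adjusted p = 0.0218, limma), both below the fold limit. *Atrx* overlapped between the groups. In the other direction *E2f6*, also on this list, had a log2 difference of 0.23 (adjusted p = 0.0555, limma). Its signal was higher in every *Ltbr* KO sample.

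Germline genes were looked at as companions of *Rhox5*. Of 39 listed germline genes, among them *Stra8*, *Mael*, *Taf7l* and the pluripotency genes *Nanog* and *Pou5f1*, 23 stood at 1 in all 6 samples. Another 8 were among the tested genes, with a signal of 20.9 to 152. Of these 0 were called in limma, against 2.78% of all tested genes. An unadjusted p under 0.05 was reached by 0, against 27.1%, and the median log2 difference was -0.030. With 8 genes of low signal, these counts cannot decide whether germline genes rose with *Rhox5*. *Ddx4*, an RNA helicase of germ cells, stood between 34.3 and 38.8 in all samples, and *Dazl*, which is needed for germ cell formation, between 5.74 and 5.96. Both overlapped between the groups.

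Of 12 listed factors that are known for *Rhox5* promoters or bind the motifs looked for, *Gata4* and *Gata6* stood at 1 in all samples, 9 were tested and 0 were called. 5 had an unadjusted p under 0.05, against 27.1% of all tested genes, and the median log2 difference was -0.089. Among ETS factors, *Gabpa* had a log2 difference of -0.26 (adjusted p = 0.0478, limma) and *Elf1* one of -0.28 (adjusted p = 0.0259, limma), both under the fold limit. The adjusted p of *Gabpa* lay between 0.07 and 0.182 in the limma fits without any 1 sample other than Ly5.1 WT sample 3. For *Elf1* it was 0.108 without *Ltbr* KO sample 2, 0.172 without *Ltbr* KO sample 3 and 0.128 without Ly5.1 WT sample 2. *Gabpb1*, the partner of *Gabpa*, had one of 0.22 (adjusted p = 0.114, limma). *Sp1* overlapped between the groups, with 711 to 897 in Ly5.1 WT and 755 to 892 in *Ltbr* KO (adjusted p = 0.943, limma).

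The blood GATA factors were present at a high level. *Gata2*, a regulator of stem cells, stood at 3813, 3906 and 4259 in Ly5.1 WT and at 4731, 4554 and 4625 in *Ltbr* KO, with a log2 difference of 0.22 (adjusted p = 0.0402, limma). With quantile normalization this was 0.08 (adjusted p = 0.456), and the adjusted p lay between 0.0941 and 0.158 in the fits without any 1 sample other than Ly5.1 WT sample 3. *Gata1*, of the erythroid and mast cell lineages, had one of 0.20 (adjusted p = 0.135, limma). *Unc5c* and *Ins2*, which have been described as targets of *Rhox5* in Sertoli cells, stood at 1 in all samples.

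**Figure D4:**
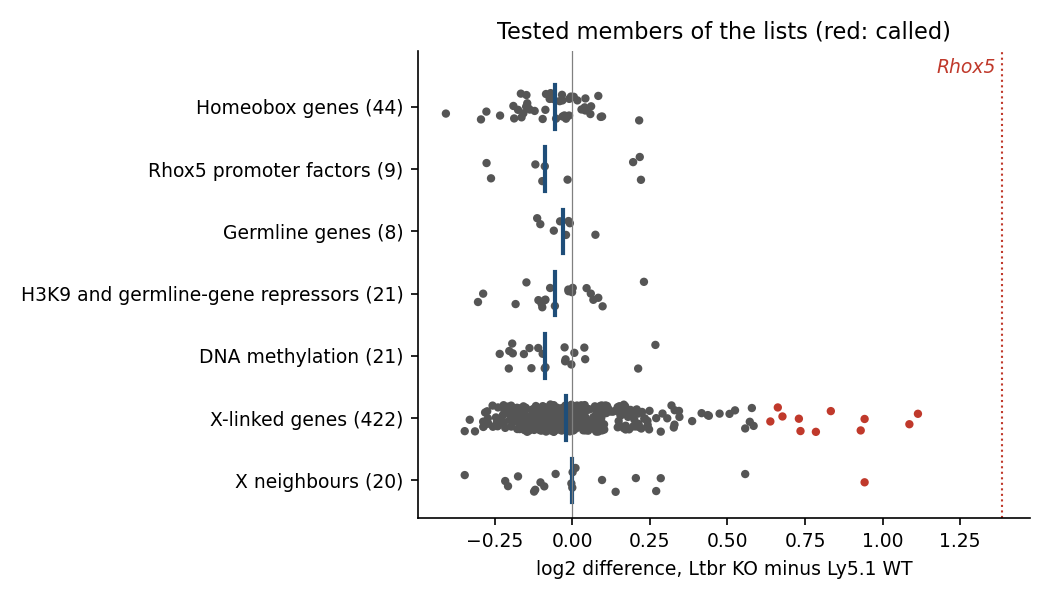
Log2 differences (*Ltbr* KO minus Ly5.1 WT, x axis) of the tested members of 7 lists, with the number tested after each name. Each point is a gene, and red points were called, with an adjusted p under 0.05 and a change of 1.5-fold or more. Blue bars are medians and the dotted line is *Rhox5*. Only the X-linked genes (11 of 422) and the X neighbours (1 of 20) hold red points, and the dotted line stands at 1.38.

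Among homeobox genes *Rhox5* stood apart by its level. Of 109 other homeobox genes in the files 45 were at 1 in all samples, 44 were tested and 0 were called in limma, with 9 at an unadjusted p under 0.05 (27.1% of all tested genes). Their log2 differences ran from -0.41 to 0.22 with a median of -0.057. In signal per kb, *Rhox5* at 5608 over all samples was 13.1 times the next of 65 names, *Adnp* at 429.7, which encodes a chromatin protein. *Meis1* at 323.6, a cofactor of Hox proteins in stem cells, and *Tgif1* at 320.5, a repressor in TGF-beta signalling, came next. The ratio of *Rhox5* to the next gene ran from 6.46 in the lowest sample to 23.0 in the highest.

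*Meis1* had a log2 difference of -0.23 (adjusted p = 0.038, limma), *Adnp* one of -0.18 and *Tgif1* one of 0.22. Each stayed under the fold limit. These levels per kb rest on a single transcript length per gene and on signals that had been shrunk.

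**Figure D5:**
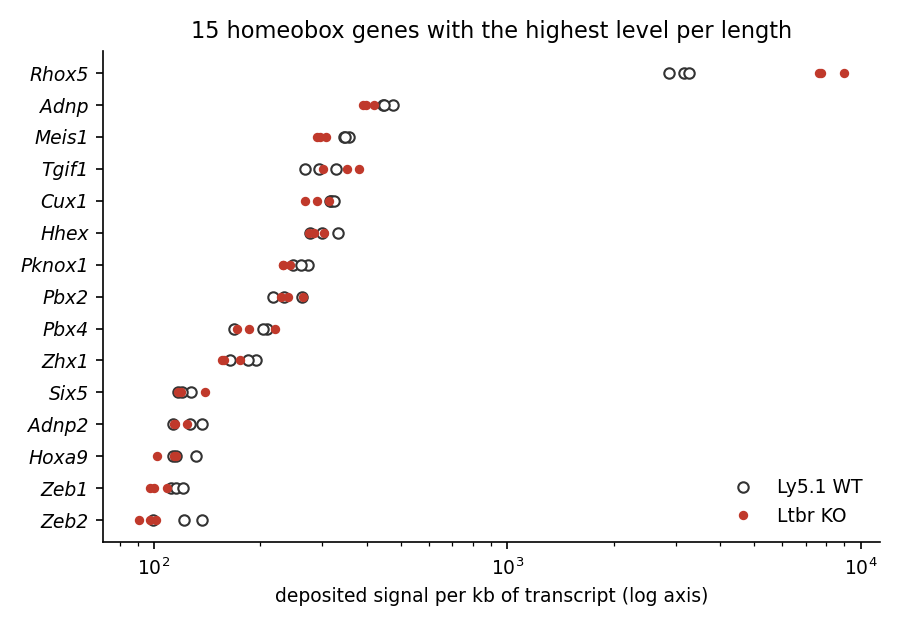
Deposited signal per kb of transcript (x axis, log scale) of the 15 homeobox genes with the highest level per length, with 1 point per sample for Ly5.1 WT (open) and *Ltbr* KO (red). *Rhox5* lies at 2873 to 3264 in Ly5.1 WT and 7609 to 8990 in *Ltbr* KO, and all other genes lie below 500 with both groups close together.

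The genes whose signal was most like that of *Rhox5* over the 6 samples were *Rpl7* (Pearson's r = 0.9989), *Fxyd5* (0.9988), *LOC101056029* (0.9985), *Cd63* (0.9983) and *Gm6570* (0.9983). *Rpl7* encodes a ribosomal protein, *Fxyd5* a regulator of the sodium pump and *Cd63* a tetraspanin of endosomes, and the remaining pair are predicted genes. All 5 were higher in every *Ltbr* KO sample, from 15530, 15980 and 16610 to 25950, 26780 and 28130 for *Rpl7*. Their log2 differences were smaller than that of *Rhox5*, from 0.56 (*Fxyd5*) to 0.77 (*LOC101056029*). These correlations hold the difference between the groups and rest on 6 samples, and are given as a description.

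The sort markers were read beside *Rhox5*. *Kit* (log2 difference -0.15, adjusted p = 0.154) and *Slamf1*, which encodes CD150 (-0.18, adjusted p = 0.22), did not pass the test in limma, though *Kit* had a log2 difference of -0.34 (adjusted p = 0.000301) with quantile normalization. *Ly6a*, which encodes Sca-1, ran from 726 to 767 in Ly5.1 WT and from 542 to 582 in *Ltbr* KO, with a log2 difference of -0.39 (adjusted p = 0.0016, limma) below the fold limit. *Cd48*, which the sort excludes, stood between 20.1 and 28.9 in all samples. None of 15 tested HSC markers was called, 7 had an unadjusted p under 0.05, and 53.3% did not overlap between the groups, against 27.1% and 30.4% of all tested genes. Their summed signal was 24840 to 25650 in *Ltbr* KO and 27130 to 27810 in Ly5.1 WT.

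Markers of other cell types moved with the groups in part. Of 7 tested mast cell and basophil markers 2 (28.6%) passed the limits of a higher call, *Cma1* and *Cyp11a1*, against 2.72% of all tested genes. Both had been picked above by this same log2 difference, so their calls are a description and no test. With them, the summed signal of all 12 was 15060 to 16180 in *Ltbr* KO against 6966 to 7859 in Ly5.1 WT. Without these 2 genes the sum was 2257 to 2386 in *Ltbr* KO and 2025 to 2262 in Ly5.1 WT, and the mast cell proteases *Tpsb2*, *Mcpt1* and *Mcpt2* stood at 1 in all samples. Within that sum *Cpa3*, the mast cell carboxypeptidase, ran from 817 to 1006 in Ly5.1 WT and from 1237 to 1363 in *Ltbr* KO (log2 difference 0.56, adjusted p = 1.44e-05, limma), under the fold limit, while *Prss34*, a basophil protease, had a log2 difference of -0.41 (adjusted p = 0.0033, limma). The 13 neutrophil markers gave 0 calls in limma (11 at an unadjusted p under 0.05, against 27.1% of all tested genes), with a sum of 45760 to 46570 in *Ltbr* KO and 59800 to 64730 in Ly5.1 WT. *Emr1* among 9 monocyte and macrophage markers (log2 difference 0.83), *Cd79a* among 6 B cell markers (0.62) and *Hba-a1* among 10 erythroid markers (0.99) were called higher. The B cell genes *Ighm* (-1.04) and *Igkc* (-1.21) were called lower. The medians of these lists were -0.05, -0.087 and 0.066. In the same order, 2, 2 and 1 tested members lay higher in *Ltbr* KO without overlap, and 2, 3 and 2 lower. Over all tested genes these shares were 17.0% and 13.5%. Members not called included *Csf1r* (-0.27), *Car2* (-0.26, adjusted p = 0.00447, limma) and *Hbb-b1* (0.04). T and NK cell, megakaryocyte, and stromal and endothelial markers gave 0 calls among 6, 7 and 4 tested genes, against 2.78% of all tested genes. So few genes allow no conclusion from a count of 0. Of these lists 16.7%, 42.9% and 0.0% did not overlap between the groups, against 30.4%. Under the fold limit, *Itga2b* had a log2 difference of 0.31 (adjusted p = 0.000461) and *Pf4* one of -0.33 (adjusted p = 0.024, both limma), both megakaryocyte markers. The part of such cells in the level of *Rhox5* was not tested.

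In the 6 fits that each left out 1 sample, the log2 difference of *Rhox5* lay between 1.31 and 1.43. Relative to the ribosomal protein genes, a centring that moved the median of all tested genes by -0.88, it was 0.50.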

How the data were processed

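RNA of 3 *Ltbr* KO and 3 Ly5.1 WT samples was sequenced. For assembly of the reads the authors used SeqMan NGen, and for quantification ArrayStar. They deposited a linear signal of 26595 rows per sample, and their methods name regularized log values. The submitters' processing notes name DESeq2, GRCm38 and mm10. That the signal is 2 to the power of the regularized log was taken from its values. The paper reports only an average read number over the samples. The depth of each sample is unknown, and precision rests on the spread between samples.

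The highest of repeated names was kept, and log2 of the signal was fitted without a pseudocount in limma 3.58.1 under R 4.3.3 (lmFit, then eBayes with a mean-variance trend), with Benjamini-Hochberg adjustment over all 13108 tested genes. Simulated data were used to test this step, and 99% of 200 genes changed 2-fold among 13108 were recovered with 0 false calls. The simulated noise was drawn separately for each gene, so this result does not cover shifts shared by genes of like length. Positions came from RefSeq GRCm38.p6 (22316 names matched by symbol and 2222 by synonym), transcript lengths from GENCODE M21 (24533 names) and promoter sequences from RefSeq. *Rhox5*, the lists, the tests and the genes named were chosen with earlier results of these data known. Named genes were *Rhox5*, *Ltbr*, the 4 genes next by log2 difference, the 5 most correlated genes, genes bordering the cluster, called members of each list and factors with a known role at *Rhox5*. *Gabpb1*, *Dnmt3l*, *Cbx1*, *Atrx*, *Rpl36a*, *Rps4x*, *Rpl10*, *Ly6a*, *Eif2s3y*, *Kdm5d*, *Csf1r*, *Car2*, *Hbb-b1*, and the germline, mast cell and basophil genes not called were named after their values had been seen. So were *E2f6*, *Itga2b* and *Pf4*. 1 listed promoter factor is not reported here. Alternatives were other filters, scalings, thresholds and variance models, a replicate block, and leaving out each sample.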

Additional observations from a re-analysis of the deposited data

How the results depend on the processing

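The log2 difference of *Rhox5* stayed within its residual SD under quantile normalization, centring on all tested genes, a pseudocount of 10 and the replicate block, ran from 1.31 to 1.43 without each sample in turn, and was 0.50 when centred on ribosomal protein genes and 0.77 relative to genes of like mean and length, the last chosen after the data had been seen. Of 364 calls among all genes, the same 364 were called with the replicate number as a block, where *Rhox5* stood at 1.38. Deviations of same-numbered samples correlated at 0.03, -0.01 and 0.09, the last being the highest of all pairs. *Ltbr* KO samples 1 and 2 each correlated better with a Ly5.1 WT sample of another number. With 3 samples per group, such values cannot decide whether pools of the same number came from the same chimeras. Leaving out samples gave 342 to 407 calls among all genes, 11 to 15 among X-linked genes and 1 to 2 among X neighbours (2 without Ly5.1 WT sample 3, when *Ndufa1* was added), and 0 among DNA methylation genes, repressors, germline genes, promoter factors and homeobox genes. Without the fold limit there were 1936 calls (1388 higher, 548 lower), 5 X neighbours, 50 X-linked genes, 2 DNA methylation genes, 2 H3K9 and germline-gene repressors, 3 promoter factors and 4 homeobox genes. With a fold of at least 2 there were 42, 0 X neighbours and 2 X-linked genes. The share of higher calls was 356 of 364 in the main scaling and 261 of 289 with quantile normalization.

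Centring on the ribosomal protein genes moved the median of all genes by -0.88, which gave 12037 calls, all lower, with 18 X neighbours, 393 X-linked genes, 21 DNA methylation genes, 21 repressors, 8 germline genes, 9 promoter factors and 44 homeobox genes. In this scaling the log2 difference changed sign for *Rpl7* (-0.13), *LOC101056029* (-0.11), *Cd63* (-0.27), *Fxyd5* (-0.32), *Ndufa1* (-0.32), *Gm6570* (-0.27), *Rnf113a1* (-0.61), *Lamp2* (-0.79), *Hells* (-0.84), *Ehmt2* (-0.82), *Gata1* (-0.69), *Gata2* (-0.66), *Tgif1* (-0.67), *Xist* (-0.83), *Ddx3y* (-0.79), *Cd48* (-0.87), *Emr1* (-0.048) and *Cd79a* (-0.26). Of the 45 genes followed, 6 changed sign under another alternative, each while not called: *Zbtb33*, *Hells*, *Setdb1*, *Sp1* and *Cd48* without single samples and *Ehmt2* with quantile normalization. *Cd79a* and *Hba-a1* were no longer called without variance moderation, and *Cd79a* without Ly5.1 WT sample 3. *Rpl7*, *LOC101056029* and *Cd63* fell under the fold limit with quantile normalization, and *Cd63* and *Gm6570* without *Ltbr* KO sample 3 and without Ly5.1 WT sample 1. The other Rhox genes could not be tested under any alternative because they were constant. The depth of each single sample is unknown, and for weakly expressed genes shrinkage understates differences.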
